A study of Drosophila melanogaster with 4 samples.

Results

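Strong binding sites of POF outside chromosome 4 were examined in heads of adult fruit flies (Drosophila melanogaster). A site was taken from the authors' enriched regions, here called clusters, if it lay on one of the 5 large euchromatic arms (2L, 2R, 3L, 3R or X), had a score of at least 1.5 in the list that served the whole series (the replicate set), and shared at least 1 base with a cluster of each of the 2 ChIP replicates. This left 464 strong shared sites, 5.61% of the 8273 replicate-set clusters on those arms and part of the 9053 in all. The sites were chosen by the replicate-set score and by replicate overlap, so both, and all that comes from the same libraries, are given as descriptions, without tests. Clusters of the large arms overlapped in both replicates, with or without that score, are called shared and made up 50.2% of the 8273.

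All samples came from wild-type Oregon-R flies described as mixed adults, reared in population cages, with heads collected by sieving. Nuclei of formaldehyde-fixed tissue gave 2 POF ChIP libraries, made by chromatin immunoprecipitation and sequencing with an antibody against POF, and 2 input libraries of genomic DNA. Each input was the background of the ChIP library with its number, and values of the inputs were not analysed here. The labels do not tell whether the replicates were separate collections of flies, the sexes were not separated by any label, and heads mix neurons, glia, eye and fat cells. A binding level in 1 cell type and a lower one in many therefore cannot be told apart. Read depth is unknown, so no counting error can be attached to a score.

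POF is an RNA-binding protein named for painting chromosome 4, a small and largely heterochromatic chromosome, and is known to raise the output of its genes. On that chromosome it is known to act together with the heterochromatin protein HP1a and to bind within transcribed genes. Because it is best known as a mark of a single chromosome, its sites elsewhere are a set apart. Positions are those of FlyBase release 5, as the file headers give them. No gene annotation or genome sequence of that release was used here, so sites are given by position, without gene names or bases.

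The strong sites were far narrower than chromosome 4 clusters of the same score and somewhat wider than the other shared clusters of the arms. They were 2119 to 11744 bases wide with a median of 2735 bases (quartiles 2403 and 3588), and together they covered 1.52 Mb, or 1.27% of the large arms. The other 3689 shared clusters of those arms, which scored under 1.5, had a median of 2386 bases (quartiles 2101 and 3221). On chromosome 4, the 20 clusters that met the same score and overlap had a median of 40514 bases, and 18 of them were wider than 10 kb. Of the 464 strong sites, 2 were wider than 10 kb. Sites of 5000 bases or more numbered 54, or 11.6%, against 6.0% of the other shared clusters.

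**Figure D1:**
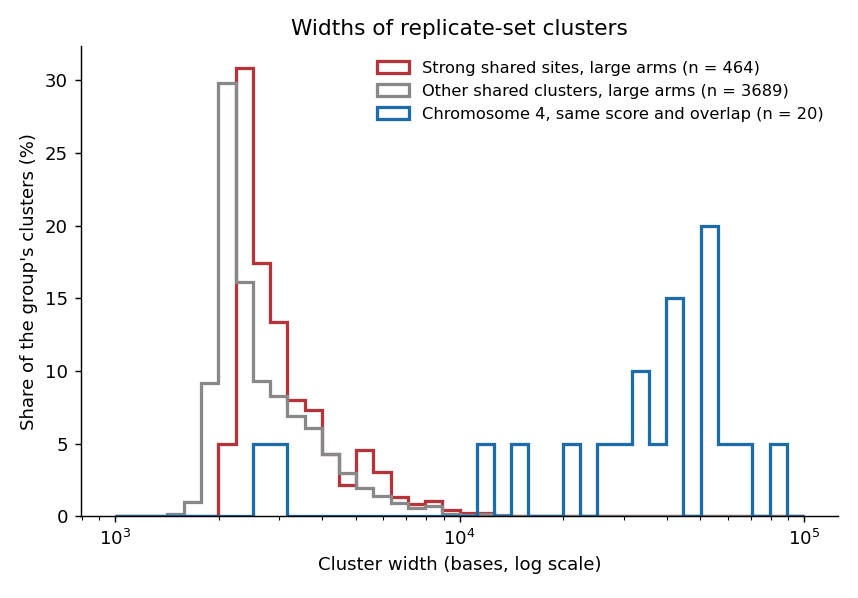
Widths of replicate-set clusters in bases on a log scale, as the share of each group's clusters per bin, for 464 strong shared sites, 3689 other shared clusters of the large arms and 20 chromosome 4 clusters of the same score and overlap. The strong sites pile up around their median of 2735 bases, while 18 of the 20 chromosome 4 clusters lie above 10 kb.

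Width did not grow with score among the strong sites. The Spearman correlation of score and width was -0.02 over the 464 sites, against 0.49 over the 3689 other shared clusters. Both are descriptions across clusters that share libraries and, in the first case, a restricted range of scores. Sites scoring 1.5 to 2 had a median width of 2842 bases (n = 292) and those scoring 3 or more had 2655 bases (n = 14). The 54 sites of at least 5000 bases reached a score of 2.26 at most, below the 65 sites that scored 2.5 or more.

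The widest strong site lay at 10259504 to 10271247 on 2L, with 11744 bases and a replicate-set score of 1.67. It was followed by 402274 to 413298 on 2R with 11025 bases and a score of 1.60, 1490002 to 1499150 on 2R with 9149 bases and 1.74, 1581980 to 1590978 on 2R with 8999 bases and 1.93, and 15779694 to 15788346 on the X with 8653 bases and 1.98. None of the 5 widest was among the strongest. The narrowest lay at 23002433 to 23004551 on 2L and at 19994261 to 19996379 on 3R, both 2119 bases wide, with scores of 2.18 and 1.67. Next were 16161010 to 16163149 on 2R with 2140 bases and a score of 2.18, 11901286 to 11903432 on 2R with 2147 bases and 1.82, and 1196366 to 1198518 on 3R with 2153 bases and 1.54.

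The scale of the scores can be read in part from the lists themselves. Scores that recur in the replicate set took 913 distinct values, and 16 pairs of these values were exactly 1 apart within a tolerance of 2e-09. A further 24 pairs were apart by the base-2 logarithm of 1.5, while 0 pairs were 0.9 or 1.1 apart. Replicate 1 had 5 and 13 such pairs and replicate 2 had 5 and 10, with 0 at the other spacings in each. Logarithms to base 2 of ratios of whole numbers have these spacings. On that reading a score of 1.5 is a ratio of 2.83 and a score of 3 a ratio of 8.0, up to a normalization that neither labels nor headers state.

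Most sites lay near the threshold. Scores of 1.5 to 2 were held by 292 sites (62.9%), 2 to 2.5 by 107, 2.5 to 3 by 51 and 3 or more by 14, and the median score was 1.86. Just inside the threshold lay sites of 1.5016 on 3L at 20294281 to 20296610, 1.5027 on 3R at 7835152 to 7837557, 1.5038 on 2R at 18693382 to 18695742, 1.5042 on 3L at 12841962 to 12844416 and 1.5051 on 2L at 12703457 to 12705677. Just outside lay shared clusters of 1.4952 on 2L at 10234691 to 10240509, 1.4944 on 3L at 9064204 to 9067269, 1.4933 on 3R at 16446536 to 16448833, 1.4919 on the X at 9443686 to 9445893 and 1.4902 on 3R at 21087242 to 21089466. The lowest score inside and the highest outside thus lay close together.

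The strongest site of the replicate set was also the strongest of the large arms in each replicate. It lay at 11054022 to 11056450 on 3R and scored 3.93 in the replicate set, 3.59 in replicate 1 and 4.17 in replicate 2. The second, at 19252853 to 19255417 on 2R, scored 3.77, and 3.44 in replicate 1 and 4.03 in replicate 2, where it ranked 2 and 3. The site at 9485019 to 9488188 on 3R scored 3.65, with 3.14 in replicate 1 and 4.04 in replicate 2. These leading sites were 2.43 to 3.17 kb wide, and each was covered in both replicates over at least 95.8% of its length.

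The next sites kept high ranks in both single lists. The site at 16448804 to 16451340 on 2R scored 3.31 in replicate 1 and 3.72 in replicate 2 and ranked 4 in each. The site at 10412274 to 10415274 on 2L scored 3.33 and 3.58 in replicates 1 and 2, ranks 3 and 7. At 5063736 to 5066410 on 2R the scores were 3.04 and 3.58, ranks 9 and 6. All 3 thus stayed among the highest 9 of 6153 and 5028 large-arm clusters.

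Of the remaining sites of the highest 10, the one at 13033095 to 13035879 on 3L scored 3.00 in replicate 1 and 3.52 in replicate 2, ranks 11 and 10. At 19933680 to 19936126 on 3R the scores were 2.94 and 3.56, ranks 12 and 9. At 5473180 to 5475790 on 2R they were 2.88 and 3.59, ranks 14 and 5, and at 4837403 to 4840742 on 2R they were 3.10 and 3.24, ranks 7 and 15. No site of the highest 10 fell below rank 15 in either replicate.

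The second-highest site of 2L lay at 10421684 to 10424945, 6409 bases past the end of the highest, and scored 3.04, with 3.06 in replicate 1 and 3.39 in replicate 2. On 3L the second-highest, at 20517280 to 20520889, scored 3.05, with 3.18 and 3.57. The X had no site scoring 3 or more. Its highest lay at 1902390 to 1905443 with 2.79 (2.52 in replicate 1 and 3.13 in replicate 2) and at 15878954 to 15882136 with 2.78 (3.00 and 3.15). They ranked 22 and 23 among the 464.

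A single cluster in each replicate overlapped 439 of the 464 strong sites (94.6%), a share close to the 94.1% (3472 of 3689) of the other shared clusters. The replicate clusters covered the strong sites more fully. In the median strong site 94.6% of the length was covered in both replicates, against 87.1% in the other shared clusters. At least 90% of the length was covered in both for 329 strong sites (70.9%), against 40.5% of the other shared clusters. For the 439 sites with 1 cluster in each, the midpoints of the replicate clusters were a median of 43.5 bases apart, and 72.9% were within 100 bases. Over 3472 other shared clusters with 1 cluster in each, the median was 86 bases and 54.5% were within 100 bases. The difference was not tested, because score and width come from the same libraries.

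The least covered strong site lay at 5746699 to 5752022 on 2R, where 47.1% of the 5324 bases were in clusters of both replicates. Its scores were 2.02 in replicate 1 and 3.19 in replicate 2. The other 463 had at least 50% in both.

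Scores were higher in replicate 2 at most strong sites. Replicate 1 ranged from 0.908 to 3.59 with a median of 1.75, and replicate 2 from 1.42 to 4.17 with a median of 2.10. Replicate 2 had the higher score at 421 of the 464 sites (90.7%), with a median difference of 0.37 (SD 0.29 over sites) for replicate 2 minus replicate 1. Among the other shared clusters, 63.6% were higher in replicate 2 and the median difference was 0.08. Each score belongs to its own list, whose normalization is not stated, so ranks within the lists are set beside them.

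Across the 464 sites the replicate scores correlated with r = 0.81 (Pearson) and rho = 0.74 (Spearman), as a description over sites that share libraries and were chosen for high scores. Within the lists, 395 sites (85.1%) were among the 464 highest large-arm clusters of replicate 1, 416 (89.7%) of replicate 2 and 354 (76.3%) of both. The replicate-set score lay between the replicate scores at 387 sites, below both at 73 and above both at 4.

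**Figure D2:**
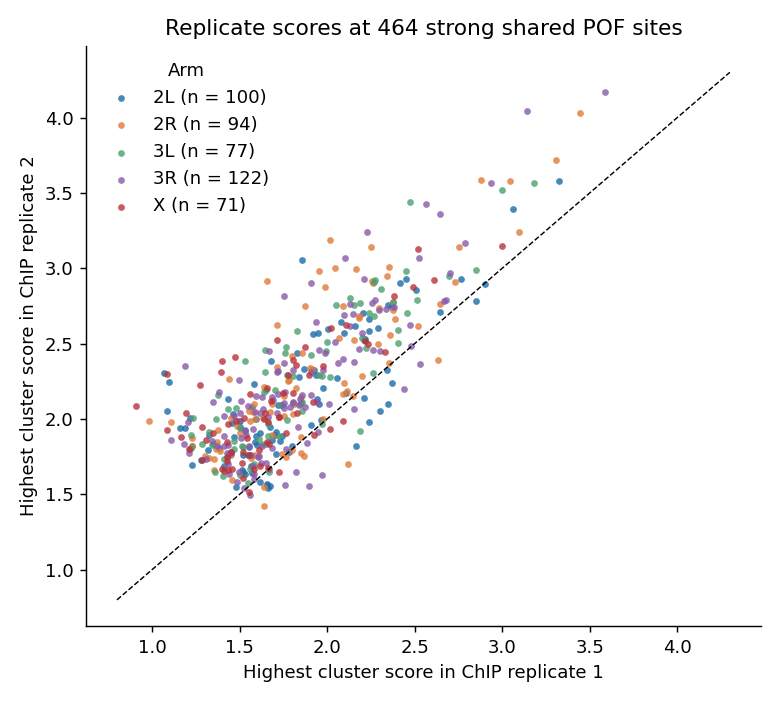
Each point is 1 of the 464 strong shared sites, coloured by arm, with the highest overlapping cluster score in ChIP replicate 1 on the horizontal axis and in ChIP replicate 2 on the vertical axis, both in the authors' score units; the dashed line marks equal scores. Most points, 421 of 464, lie above the line. The sites of the highest 10 lie at the upper right, with some lower-ranked sites among them, such as 20517280 to 20520889 on 3L at 3.18 and 3.57.

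The 5 largest disagreements of rank were sites that stood higher in replicate 2. The site at 9979241 to 9981541 on the X scored 0.908 in replicate 1 (rank 1486) and 2.08 in replicate 2 (rank 246). At 14857670 to 14861309 on 2R the scores were 0.981 and 1.99 (ranks 1254 and 291), and at 13214067 to 13217131 on 2L they were 1.07 and 2.30 (ranks 1034 and 165). At 18681204 to 18684577 on the X they were 1.09 and 2.30 (ranks 990 and 166), and at 7193368 to 7195661 on 2L they were 1.10 and 2.24 (ranks 957 and 183). All 5 would have missed a score of 1.5 in replicate 1.

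A score of at least 1.5 without support in both replicates was rare on the large arms and looked different. It was found for 26 clusters, beside the 464, so that 5.92% of large-arm clusters passed the score. Of the 26, 24 met no cluster in either replicate and 2 met replicate 1 only. Their median width was 1001 bases, and 16 were exactly 1001 bases wide, the narrowest width of the set. Their score recurred elsewhere in the replicate set for 22 of the 26, against 1 of the 464 strong sites. No replicate list holds a cluster narrower than 1301 bases, and the part of unlike width limits in the missing overlaps was not tested.

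The highest of these clusters lay at 19855718 to 19856718 on 3L and 19846526 to 19847526 on the X, each with 3.22. Next were 6167409 to 6168409 and 6783725 to 6784725 on 3R and 21543562 to 21544562 on the X, each with 3.03, and 14435465 to 14436465 and 25716002 to 25717002 on 3R, each with 2.68. The next was 24175343 to 24176343 on 3L with 2.55, a score it shared with 13357663 to 13358663 on the X. The last of the highest 10, at 22993024 to 22994408 on 2L, had 2.47. Thus 5 of these clusters scored above 3, as did 14 of the strong sites.

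Every arm carried strong sites, at 3.14 to 4.45 per Mb. Arm 2R had 94 sites or 4.45 per Mb, 3R 122 or 4.37, 2L 100 or 4.35, the X 71 or 3.17 and 3L 77 or 3.14. The first 3 values differed by less than the last 2 differed from them. As a share of all shared clusters, strong sites made up 12.8% on 2L, 12.4% on 3R, 11.3% on 2R, 9.78% on the X and 9.30% on 3L, against 11.2% over the 5 arms.

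Set beside the sequence, 3L held 16.6% of the strong sites for 20.6% of the length and the X 15.3% for 18.8%. Arm 2L held 21.6% for 19.3%, 2R 20.3% for 17.8% and 3R 26.3% for 23.4%. These differences between arms were not tested, because neighbouring sites are not independent.

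The arms also differed in how high their sites reached. Of the 71 X sites, 56 scored under 2 and 5 scored 2.5 or more. On 2R, 53 of 94 scored under 2 and 18 scored 2.5 or more, and on 3R the numbers were 76 and 18 of 122. Arms 2L and 3L had 11 and 13 sites of 2.5 or more. The median score was 1.77 on the X, 1.79 on 2L, 1.89 on 3R, 1.92 on 3L and 1.94 on 2R.

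The place of the X among the arms therefore changed with the score asked for. At a lower score limit, a ratio of 2.38 on the base-2 reading, the X had 5.98 sites per Mb and 3L 5.05, and at 2 the X had 0.669 and 3L 1.30. At 2 the X held 8.72% of the strong sites. With 1.5 the X and 3L were alike in density, at 3.17 and 3.14 per Mb. The lower density of both against the other arms held at 1.5 and when either replicate list ranked the sites, where the X had 3.17 (replicate 1) and 3.30 (replicate 2) and 3L had 3.06 and 3.38. In the ranking by replicate 2 the others had 3.95 (2L), 4.12 (3R) and 4.78 (2R).

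Strong sites were a larger part of the shared clusters beside the centromeres of 2L, 2R, 3L and 3R, and not clearly so on the X. In the 10% of each arm nearest the centromere, 68 strong sites made up 22.4% of the shared clusters there, while in the other bins of 10%, pooled over arms, they made up 7.50% to 12.3%. The proximal bin held 14.7% of all strong sites and 6.37% of the other shared clusters. The other pooled bins each held 7.76% to 11.2% of the strong sites and 8.92% to 12.0% of the other shared clusters. The higher strong share thus came both from more strong sites and from fewer other shared clusters. Sharing itself varied there, with 7 of 74 clusters shared at 23000001 to 24000000 on 3L and 50 of 71 at 1000001 to 2000000 on 3R. Strong sites as a share of all proximal clusters were not computed. By arm, the strong share was 26.1% near the centromere against 11.5% in the rest of 2L, 27.6% against 10.1% on 2R, 29.2% against 8.71% on 3L, and 21.2% against 11.4% on 3R. On the X it was 10.4% against 9.73%, from 5 strong sites. Single bins of an arm varied more than the pooled ones. On the X, 4 other bins had a higher strong share than the proximal one, the highest at 15.8%, and on 2L 2 other bins reached 18.3% and 18.4%. None of these differences was tested.

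The sites near the centromeres were also wider. Their median was 3322 bases, and 19 of the 68 (27.9%) reached 5000 bases, against 2648 bases and 35 of 396 (8.84%) in the rest of the arms. On 2R the proximal sites had a median of 5300 bases and 9 of 16 reached 5000 bases. On 3R the median was 2714 bases and 0 of 22 did. The scores did not separate these groups, with medians of 1.89 near the centromeres and 1.85 elsewhere. The other shared clusters had medians of 2637 bases near the centromeres and 2375 bases elsewhere. Coverage of the strong sites in both replicates was lower near the centromeres, at a median of 90.3% against 94.9%. The other shared clusters were also less covered there, at 80.8% against 87.4%, so the drop was not particular to strong sites. The part of repeated sequence in these values was not tested.

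**Figure D3:**
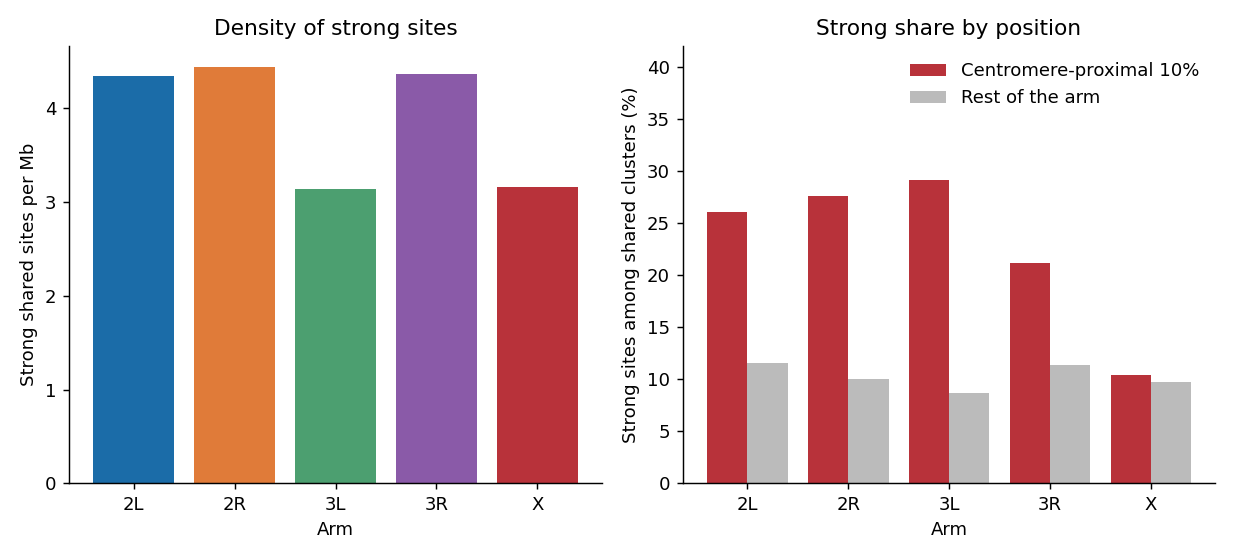
Left, strong shared sites per Mb on each large arm. Right, strong sites as a percentage of all shared clusters in the centromere-proximal 10% of each arm (red) and in the rest of the arm (grey); arms 2L, 2R, 3L and 3R show 21.2% to 29.2% near the centromere, and the X shows 10.4%.

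Sites reached almost to the end of several assembled arms. The last site of 2L, at 23002433 to 23004551, ended 6.99 kb before the last base of the arm, at its centromere side. The first of 2R, at 16689 to 20357, and the first of 3R, at 57046 to 59773 with a score of 3.00, also lay on that side, 16.7 and 57.0 kb from the first base. The last of 3L, at 24019748 to 24027082, and of the X, at 21856295 to 21859437, stood 516 and 563 kb from the last base.

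At the telomere side, the last site of 3R, at 27876740 to 27879872, lay 25.2 kb from the last base. The first of 3L, at 222249 to 228186, of 2L, at 282226 to 284528, and of the X, at 380600 to 382906, lay 222, 282 and 381 kb from the first base. The last of 2R, at 20401551 to 20404206, lay 743 kb from the last base.

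The strong sites were mostly apart from one another, with some close groups. The median gap between neighbours on an arm was 138 kb (quartiles 37.4 and 376 kb), and the largest 2.59 Mb. With less than 20 kb as close, 326 sites (70.3%) had no close strong neighbour and 138 fell into 60 groups, 50 of them pairs. Groups of 4 or more numbered 3. The median number of other clusters of any score within 50 kb was 9 around strong sites and 8 around the other shared clusters.

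The largest group had 8 sites within 78.7 kb, at 10353685 to 10432400 on 2L, and held the fifth-highest and the 13th-highest site of the set. Its sites scored 1.59 to 3.44 and covered 46.8% of the stretch. The next had 5 sites within 49.6 kb at 11020801 to 11070351 on 3R, and its highest was the strongest site of the set. The last of the 3 had 4 sites within 56.8 kb at 15779694 to 15836445 on the X, with scores of 1.57 to 2.39. In these stretches 10, 8 and 4 shared clusters of any score were counted. Each stretch ran from strong site to strong site with close gaps, so a high strong share inside it follows from the definition.

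Some close pairs were separated by very short gaps. Gaps under 1 kb numbered 9. The shortest, 41 bases, lay between 11030452 to 11033440 (score 1.56) and 11033482 to 11035920 (2.58) on 3R, and replicate 2 had 1 cluster across it. Gaps of 75 bases before 15878954 on the X, 81 bases before 5938595 on 2R and 220 bases before 12799149 on the X followed. The others among the closest 10 were 431 bases before 6965817, 671 before 10425617, 693 before 6970727 and 2171 before 5984964 on 2L, and 519 before 23744137 and 968 before 1196366 on 3R. Neither replicate joined any of the 78 close pairs in 1 cluster, except replicate 2 at the 41-base gap.

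Along the arms the number of strong sites varied between windows, and no expected spread was computed to set this against. Of 117 complete windows of 1 Mb, 59 held 1 to 3 strong sites, 3 held none and 11 held 8 or more. Those 11 windows, 9.40% of all, held 24.9% of the strong sites in windows and 11.1% of the shared clusters. They were chosen for their many strong sites, so their larger share of strong sites follows from the choice. The windows without a strong site were 10000001 to 11000000 on 3L, with 18 shared clusters, and 3000001 to 4000000 and 4000001 to 5000000 on the X, with 25 and 19. The median window had 3 strong sites and 34 shared clusters.

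**Figure D4:**
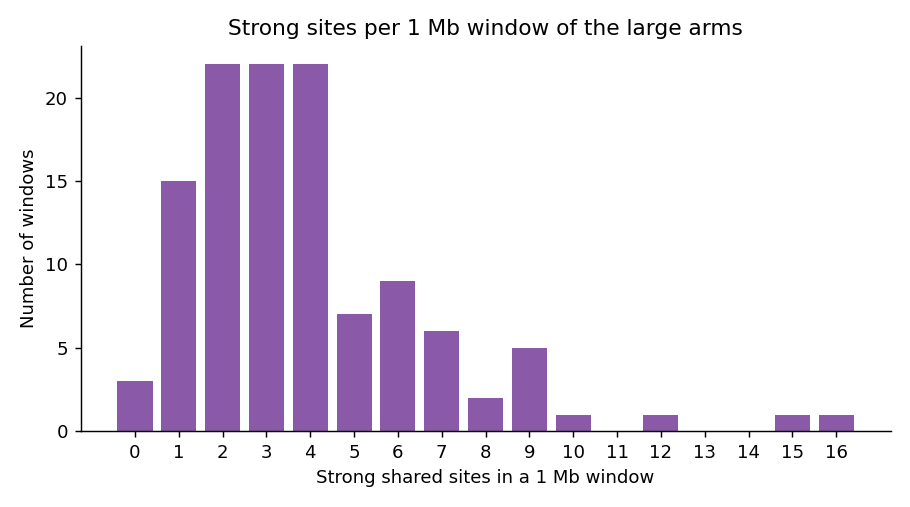
Number of complete 1 Mb windows of the large arms (vertical axis) with each number of strong shared sites (horizontal axis), for 117 windows. Most windows hold few sites, and 2 windows with 15 and 16 sites stand apart at the right.

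A window on 2L and a window on the X stood above the rest. The window 10000001 to 11000000 on 2L held 16 strong sites among 53 shared clusters (30.2%), and 15000001 to 16000000 on the X held 15 among 44 (34.1%). The next were 1000001 to 2000000 on 3R with 12 and 19000001 to 20000000 on 3R with 10. The X window thus held 15 of the 71 sites of its arm, all between 15590151 and 15887650.

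The 2L window held wide sites beside strong ones. The median width of its sites was 4046 bases, and they covered 7.64% of the window. The sequence from 10225232 to 10293871 held the widest site of the set, at 11744 bases, and 3 others scoring 1.55 to 1.76. The group of 8 followed after it, and its 2 strongest sites scored 3.44 and 3.04 in the replicate set. A site at 10505658 to 10508052 scored 2.35, with 2.21 in replicate 1 and 2.53 in replicate 2.

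In the X window the median width was 2929 bases and the strong sites covered 5.78%. The strongest, at 15878954 to 15882136, scored 2.78, followed by 15826672 to 15829432 with 2.39 (2.11 in replicate 1 and 2.62 in replicate 2) and 15750723 to 15755902 with 2.25 (2.02 and 2.61). The other 12 scored 1.52 to 2.00. In the replicates every site of the 2 windows scored at least 1.32. All 31 were overlapped in replicate 1 by 1 cluster.

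**Figure D5:**
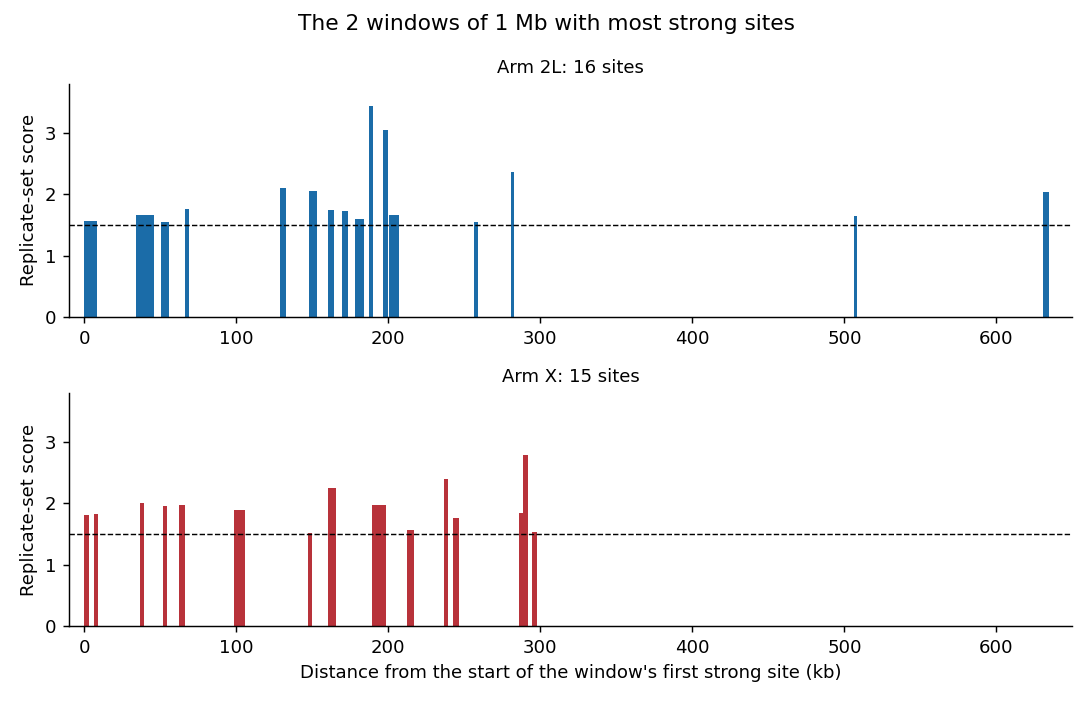
Strong sites of the 2 windows of 1 Mb with most sites, on 2L (16 sites, top) and the X (15 sites, bottom), drawn to scale by distance in kb from the start of the first site, with the replicate-set score as height and the width of the bar as cluster width; the dashed line marks 1.5. The X sites lie within 298 kb, and on 2L the group of 8 includes the 2 highest sites.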

How the data were processed

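The data were lists of enriched regions for 2 POF ChIP libraries and for the whole series, with a score per region deposited by the authors. The scale of the score is not stated in the labels. Bowtie 0.12.7, a read aligner, is named per the submitters' processing notes, and FlyBase release 5 is the build per the file headers. Nothing on the caller, its thresholds, read filters or how the replicate set combined the libraries is given in the sources used here. Regions named as depleted were left out. Only a gene table of release 6 was at hand, so no gene names were used. The members and the lists compared were chosen with earlier results of these data known.

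Sites were compared by overlap of at least 1 base, and a site's replicate score is the highest among overlapping clusters. A gap counts the bases between neighbouring clusters. Proximal means the 10% of the arm nearest the centromere, which lies at the high-coordinate end of 2L, 3L and the X and at the low end of 2R and 3R. Windows of 1 Mb were used where complete. Regions named in the text were those with the 10 highest scores, the 2 highest of each arm, the extremes of width, the neighbours of the threshold, the closest pairs, the first and last of each arm, the largest disagreements of rank and the highest clusters lacking a replicate. The dense windows and groups were added after the data were seen. The tools were numpy 2.4.6, scipy 1.17.1, pandas 2.3.3 and matplotlib 3.10.9 under Python 3.11.15, and the code was tested on simulated lists. Alternatives were other score limits, a stricter overlap, 1 replicate in place of both, no X, a width filter and ranking by either replicate list.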

Additional observations from a re-analysis of the deposited data

Results flagged for a closer look

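Outside the large arms and chromosome 4, 32 replicate-set clusters on heterochromatic and unplaced sequence met the same score and replicate overlap. They were 4.62% of the 692 clusters on that sequence, against 5.61% for the large arms, so the rule was not met more often there. They are listed because the comparisons did not use that sequence, and no control list was used here to set them against. Of these, 12 lay on unplaced sequence U, 9 on 2RHet, 7 on 3LHet, 2 on 2LHet, and 1 each on 3RHet and XHet. Their median width was 3489 bases and their median score 1.79, against 2735 bases and 1.86 for the 464 strong sites of the arms.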

How the results depend on the processing

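Of 176 values recomputed under the 9 alternatives, 141 were counted as same and 35 as moved. Reversals were not scored, and the density order of the X and 3L changed with the score limit. Site numbers were held against a fixed ratio. Shares of strong sites were held against an exact 95% binomial interval, which treats sites as independent. The difference of replicate scores was held against its SD over sites. Other values were held against the SD of the rankings by replicate 1 and by replicate 2, which were themselves alternatives. At a lower score limit, a ratio of 2.38 on the base-2 reading, there were 735 sites with a median gap of 93.9 kb, and at 2 there were 172 with a median gap of 407 kb, a median width of 2623 bases and 98.3% with exactly 1 cluster in each replicate. Ranking by replicate 1 gave a median width of 2539 bases, full (100%) cover of the median site in replicate 2, and 97.6% with 1 cluster in each other list. Ranking by replicate 2 gave 2654 bases, 96.6% and a median gap of 159 kb. Of the 464 highest clusters, 461 of replicate 1 were overlapped in replicate 2 and 464 of replicate 2 in replicate 1, and 395 and 417 overlapped a strong site. Without replicate 1 in the rule the same 464 sites remained, and without replicate 2 there were 466. A stricter overlap of 50% also kept the same 464 sites. So did the width filter of 2000 bases, as the narrowest site had 2119 bases. Where the same 464 sites were kept, every value was the main one again, so its count as same shows nothing about stability. Leaving out the X left 393 sites, and only the share on 3R was counted as moved, to 31.0%. That rise follows from dividing the same 3R sites by fewer sites, and the shares of the other remaining arms rose with it. The proximal share of strong sites stayed between 12.9% and 16.2% throughout. The cause of the other shifts was not tested, except that a higher limit leaves fewer sites by construction. No paired analysis was possible because the files used here are region lists of the ChIP libraries, with no input values to pair them with, and no result comes from a test. Read depth is unknown, which limits any statement on clusters that are missing.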
